A study of Mus musculus with 2 samples.

Results

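The genes described here are 4 CXC chemokines that attract neutrophils, their receptor, and the CXC pair that holds neutrophils in the bone marrow: Cxcl1, Cxcl2, Cxcl3, Cxcl5, Cxcr2, Cxcl12 and Cxcr4. They were chosen by symbol, and all 7 were among the 19059 genes listed for each tumor. They were measured in single cells of orthotopic brain tumors that grew from mGSC, a mouse glioblastoma stem cell line with the genotype Trp53+/- and Nf1+/-, in C57BL/6 mice. One group received vehicle and the other Xevinapant, both daily and by mouth, so the groups shared the tumor line, the host strain and the gavage and differed in the drug. Xevinapant is a small molecule that mimics SMAC and binds the inhibitor of apoptosis proteins cIAP1, cIAP2 and XIAP. The tumor line is a single line, the hosts kept their own immune system, and the labels give 1 pooled library per group, with a batch date that differs between the groups. Pool, batch and treatment therefore cannot be told apart. The matrices of the Xevinapant pool are named as vehicle, so every direction given here rests on the sample labels. Each pool was deposited as 4 cell-by-gene matrices.

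CXC chemokines are small secreted proteins that guide leukocytes. Cxcl1, Cxcl2, Cxcl3 and Cxcl5 carry the ELR motif before their first cysteines and signal through Cxcr2, which circulating neutrophils carry. Their genes are induced by NF-kB after interleukin-1 or TNF, and their transcripts are short-lived because proteins such as Zfp36 direct their decay. Cxcl12 acts on Cxcr4. That pair retains neutrophils and progenitors in the marrow, positions cells along vessels, and is known in glioma for tumor cells that gather near vessels. Neutrophils lose Cxcr2 and gain Cxcr4 as they age.

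Cxcl5 (chr5:90759360-90761624), Cxcl3 (chr5:90786103-90789600), Cxcl1 (chr5:90891241-90893115) and Cxcl2 (chr5:90903871-90905938) lie on the plus strand of the same region of chromosome 5 in GRCm38. Cxcr2 (chr1:74153989-74161246, plus strand) and Cxcr4 (chr1:128588199-128592293, minus strand) lie on chromosome 1, and Cxcl12 (chr6:117168535-117181367, plus strand) on chromosome 6. The 250 bases before the RefSeq start of Cxcl1, Cxcl2 and Cxcl3 are shown because all 3 hold a form of the NF-kB binding motif (3 G, any 2 bases, 3 T and 2 C in a row) close to the start. They come from RefSeq on GRCm38, whose starts differ from those of the GENCODE gene coordinates just given, so that the windows of Cxcl1 and Cxcl2 end inside these coordinates and distances count from the RefSeq start. They run 5′ to 3′, and capitals mark each match on either strand.
Cxcl1, chr5:90890995-90891244, plus strand: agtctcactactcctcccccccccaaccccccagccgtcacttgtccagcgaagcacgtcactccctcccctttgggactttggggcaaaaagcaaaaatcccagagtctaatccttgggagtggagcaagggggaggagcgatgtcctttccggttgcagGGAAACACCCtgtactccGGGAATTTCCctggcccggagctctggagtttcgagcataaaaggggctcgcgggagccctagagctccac
Cxcl2, chr5:90903649-90903898, plus strand: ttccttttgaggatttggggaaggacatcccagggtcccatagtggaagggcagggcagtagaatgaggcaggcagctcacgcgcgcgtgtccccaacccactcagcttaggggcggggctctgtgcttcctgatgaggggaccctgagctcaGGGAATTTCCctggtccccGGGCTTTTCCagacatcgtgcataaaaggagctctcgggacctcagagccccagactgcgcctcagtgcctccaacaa
Cxcl3, chr5:90785851-90786100, plus strand: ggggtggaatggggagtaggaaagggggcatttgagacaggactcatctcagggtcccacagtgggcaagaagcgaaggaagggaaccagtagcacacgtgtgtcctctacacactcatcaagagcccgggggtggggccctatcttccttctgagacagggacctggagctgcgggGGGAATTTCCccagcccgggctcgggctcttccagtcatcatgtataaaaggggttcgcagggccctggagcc
Cxcl1 held 2 matches, GGAAACACCC on the minus strand with 79 bases between it and the start, and GGGAATTTCC on the plus strand with 61. Cxcl2 held 2 on the plus strand, GGGAATTTCC with 87 and GGGCTTTTCC with 68 bases between it and the start. Cxcl3 held 1 on the plus strand, GGGAATTTCC, with 63 bases between it and the start. The windows of Cxcr2, Cxcl12 and Cxcr4 held 0 matches. The motif was found in 464 of 32851 promoter windows of the same length (1.41%). A match is a sequence of letters and says nothing by itself about binding. Cxcl5 has no entry in the table used.

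The matrices held 56943 barcodes and between 71835789 and 300206053 unique molecular identifiers (UMIs, each standing for 1 captured transcript), with a median of 7452 to 14027 UMIs per barcode. After filters on genes, mitochondrial UMIs, complexity and doublets, 51062 cells were kept. In tumor-gated cells, mean levels per gene were closest in 3 pairs of matrices of the same group. Their noise ratio, which is 1 for sampling noise alone, was 1.11 to 1.74, against 2.951 to 5.134 for the other 9 pairs within a group. Likeness in the other gates did not enter this choice. Each of these 3 pairs was counted as 1 sample. This gave 3 vehicle samples (vehicle 1 and 3, vehicle 2, vehicle 4) and 2 Xevinapant samples (Xevinapant 1 and 2, Xevinapant 3 and 4), and values are listed below in this order. Nothing in the labels says which animal a matrix holds, so p-values measure the spread between these samples. The study's methods speak of individual mice, so matrices joined here may be separate animals. A total of 1413 barcodes occurred in a vehicle and in a Xevinapant matrix, and leaving out the 1684 kept cells that carried them changed no call on a member. Cells were assigned to gates by marker genes that are not members, and levels are given as CPM, the UMIs of a gene scaled to all UMIs of the gate in a sample, which can be compared within a gene and not between genes.

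The sample Xevinapant 1 and 2 stood apart in what it was made of, and results are therefore also given without it where that matters. Cells in the monocyte-macrophage gate made up 6.83% of its kept cells, against 2.22% in Xevinapant 3 and 4 and 0.652% to 1.65% in the vehicle samples. Fibroblast-gated cells made up 3.42% of it, against 0.847% and 0.311% to 0.716%. The neutrophil gate held 322 cells in all, that is 0.408%, 0.119% and 0.0787% of the vehicle samples and 2.30% and 0.497% of the Xevinapant samples. The mean neutrophil share was 0.202% ± 0.180 (SD, n = 3) in vehicle and 1.40% ± 1.28 (SD, n = 2) in Xevinapant, without overlap, and the exact two-sided permutation p was 0.1, the smallest that 3 against 2 samples allow. The monocyte-macrophage, fibroblast, endothelial and T-NK shares were also higher in both Xevinapant samples than in every vehicle sample, and the tumor share was lower (73.1% and 84.6% against 87.3% to 91.3%), each with the same exact permutation p of 0.1 and 0.171 after adjustment over the 12 shares. The 11 tumor markers summed to 6708 to 9167 CPM in the tumor gate, with all 11 detected in every sample. These markers set the gate, so their level there adds no support for the tissue label.

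The 7 genes were carried by different cells. Over all kept cells they gave 65651 UMIs, of which Cxcr4 gave 51016, Cxcl12 6118, Cxcl2 5215, Cxcl3 1657, Cxcr2 621, Cxcl1 599 and Cxcl5 425. Neutrophil-gated cells held 79.4% of the Cxcr2 UMIs. Cxcl2 was shared between neutrophils (37.6%) and monocyte-macrophages (31.3%), and Cxcl3 lay mostly in monocyte-macrophages (62.1%) with 22.5% in neutrophils. Fibroblasts held 60.7% of Cxcl5, 46.5% of Cxcl12 and 26.9% of Cxcl1. Tumor-gated cells, 43712 of the kept cells, held 82.9% of Cxcr4, 34.9% of Cxcl12 and 39.4% of Cxcl1. These are shares of summed UMIs over samples of unequal size, and the gate with most UMIs was not the same in every sample, as the plot of the gates by sample shows. Monocyte-macrophages held 4.59%, 14.8% and 10.5% of Cxcl2 in the vehicle samples and 44.1% and 21.7% in the Xevinapant samples. Tumor-gated cells held 43.5%, 18.0% and 47.6% of Cxcl2 in vehicle and 4.68% and 9.58% in Xevinapant. Fibroblasts held 4.58%, 20.7% and 17.1% of Cxcl1 in vehicle and 44.7% and 13.3% in Xevinapant.

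**Figure D1:**
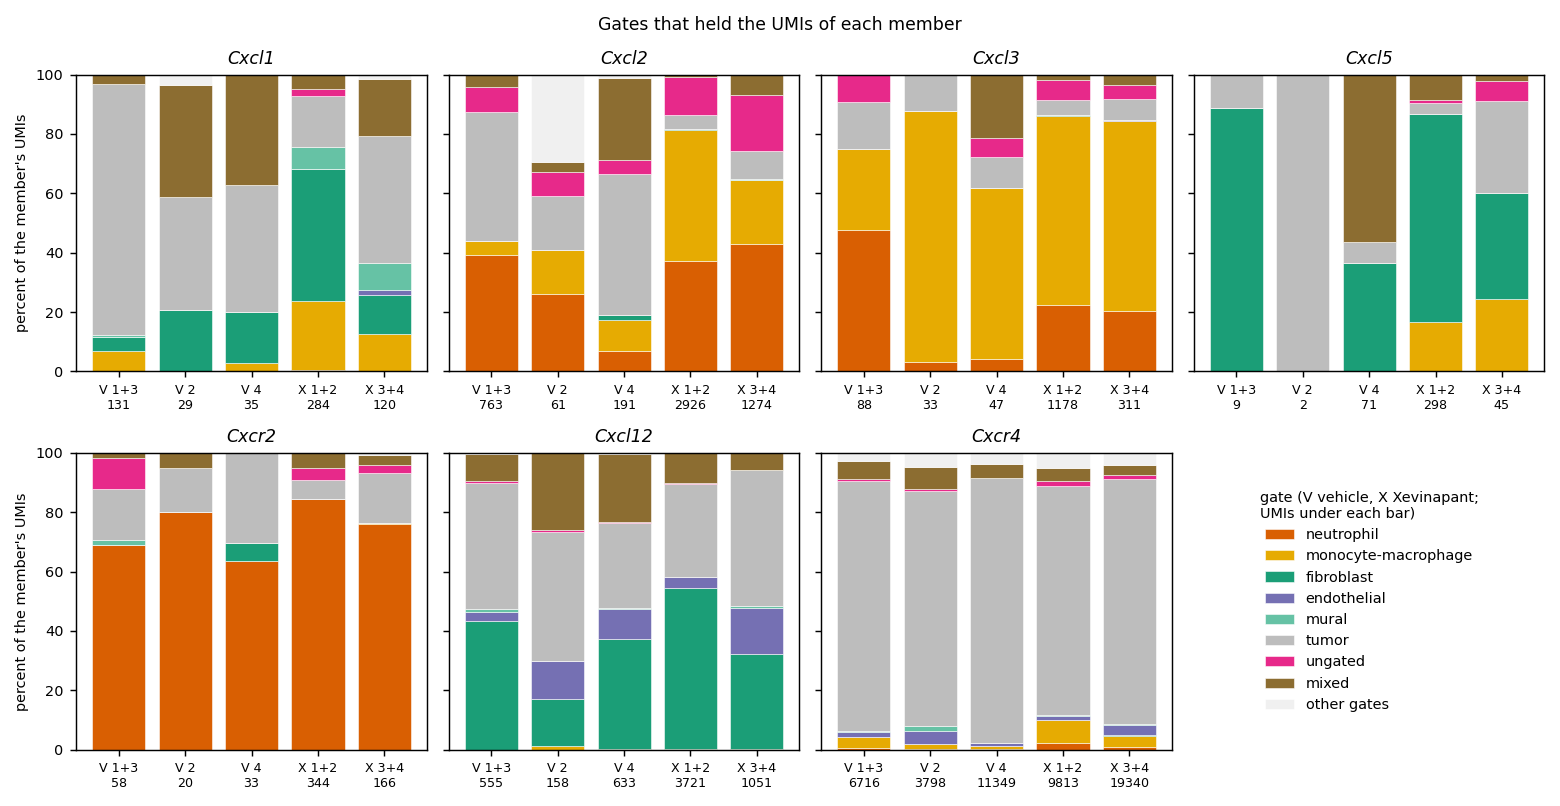
Stacked bars give, for each member and sample, the percent of the member's UMIs found in each gate (y axis, 0 to 100), with the number of UMIs printed under each bar. The neutrophil gate holds most Cxcr2 UMIs in every sample, whereas Cxcl5 rests on 9, 2 and 71 UMIs in the vehicle samples and 298 and 45 in the Xevinapant samples.

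**Figure D2:**
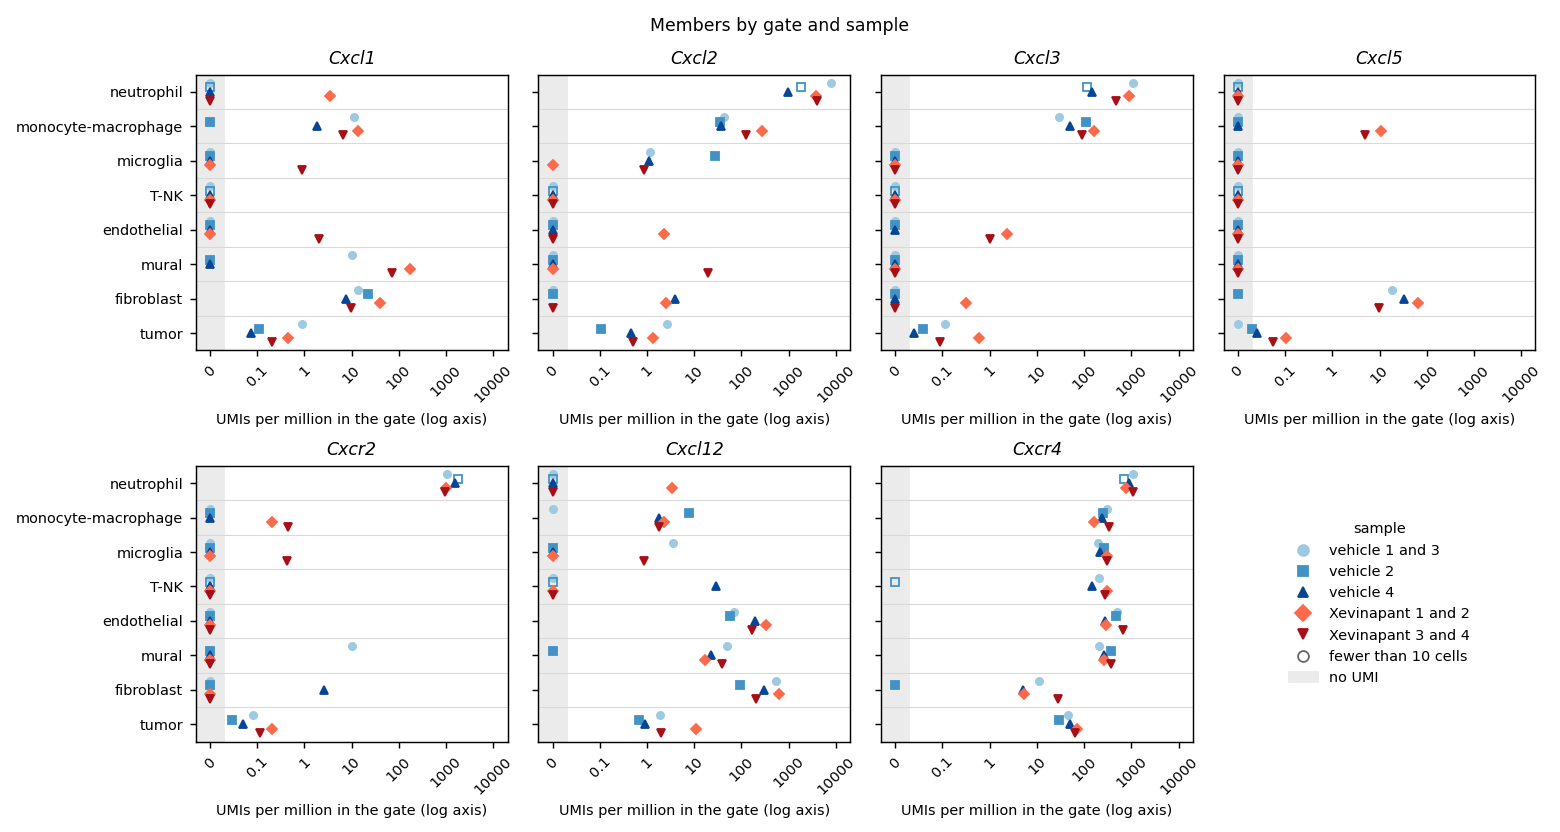
Each panel plots 1 member, with gates on the y axis and CPM in the gate on a log x axis. Each symbol is 1 of the 5 samples, open symbols have fewer than 10 cells, and symbols in the grey band have no UMI. Cxcr2 is at 939.6 to 1829.8 CPM in neutrophils and at 9.95 or less in the other gates shown, and Cxcr4 is above 100 in each immune and vascular gate shown except in the vehicle 2 T-NK cells, of which there are fewer than 10.

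Across the 12 gates and sums that could be fitted, 37 tests of a member were made with edgeR's quasi-likelihood test, and 0 passed a Benjamini-Hochberg adjusted p of 0.05. At an unadjusted p under 0.05 there were 18, all of them higher in Xevinapant, and adjusted p ran from 0.134 to 0.9999. Of these, 6 lay in whole tumors, 4 in the tumor gate and 2 each in AC-like and hypoxic cells, sums that share cells. In the gates and sums that held the 18, 1.77% (microglia) to 10.4% (whole tumors) of all genes were higher at that threshold. DESeq2 called 6 of the 18 at an adjusted p under 0.05. They were Cxcl2 in monocyte-macrophages, where it called 0.528% of all genes, Cxcl12 in tumor cells (2.49%) and hypoxic cells (2.04%), Cxcr4 in AC-like cells (2.68%), and Cxcl3 and Cxcr2 in whole tumors (4.98%). Few genes of any kind were called by edgeR: the share of all tested genes with an adjusted p under 0.05 was 0.0% in the neutrophil, monocyte-macrophage, microglia, T-NK, fibroblast, mural and tumor gates, in AC-like tumor cells and in whole tumors. It was 0.00719% in hypoxic tumor cells, 0.41% in the endothelial gate and 3.48% in the B gate. The differences given next are therefore described by their sizes and by whether samples overlap.

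**Figure D3:**
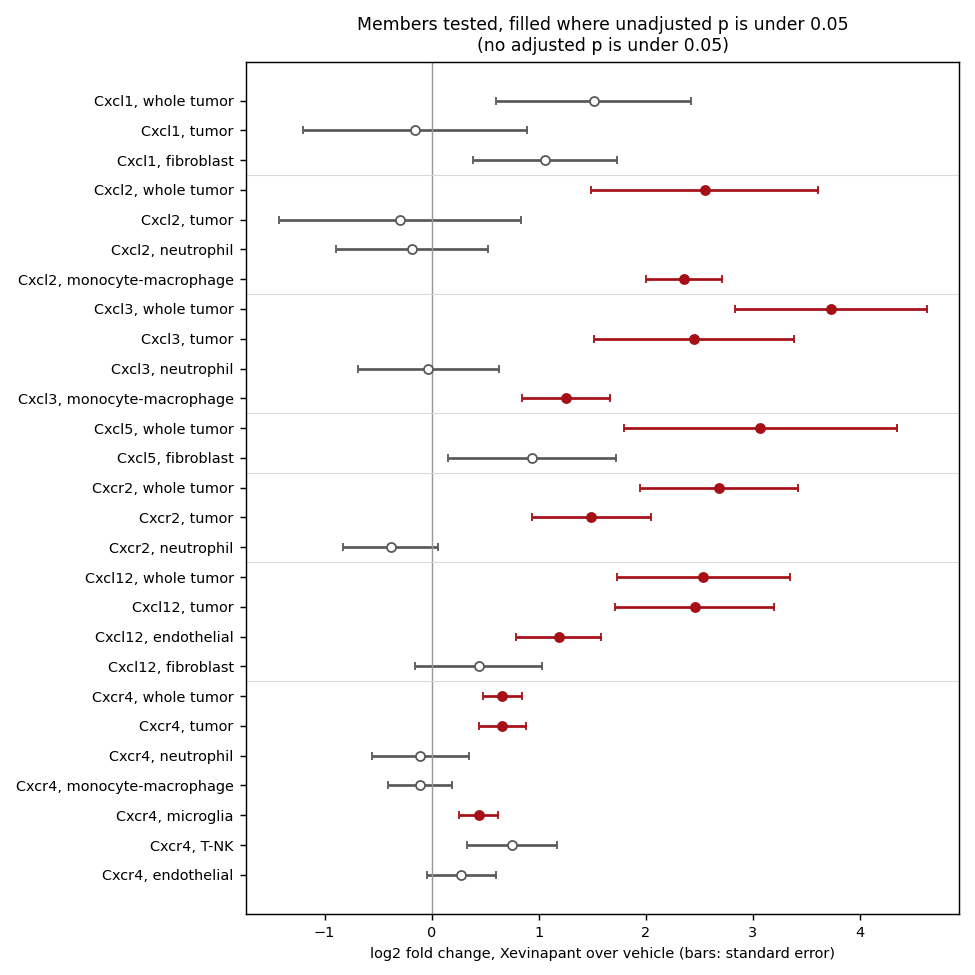
Points give the log2 fold change of a member in a gate or in whole tumors, Xevinapant over vehicle, and bars the standard error. Filled points have an unadjusted edgeR p under 0.05, and the plot shows that these lie to the right of 0, with the neutrophil values of Cxcl2, Cxcl3, Cxcr2 and Cxcr4 close to 0.

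Cxcl2, the Cxcr2 ligand with most UMIs, did not differ beyond its spread in neutrophils and was higher in Xevinapant in the monocyte-macrophage gate, without passing adjustment. In neutrophils it was 7683, 1829.8 and 978 CPM in the vehicle samples and 3741 and 4064 CPM in the Xevinapant samples. The Xevinapant values lay inside the vehicle range, and vehicle 2 had only 8 neutrophils and was left out of the fit, which gave a log2 fold change of -0.18 ± 0.71 (SE, edgeR adjusted p = 0.9999). Without vehicle 1 and 3, the highest sample, that fold change turned to 2.19, with vehicle 4 and its 10 neutrophils as the only vehicle sample. A UMI of Cxcl2 was found in 47.2% of neutrophils, and in 49.2% ± 12.96 (SD, n = 2) of the vehicle and 48.1% ± 5.62 (SD, n = 2) of the Xevinapant neutrophils by sample.

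In the monocyte-macrophage gate Cxcl2 was 43.2, 34.9 and 36.6 CPM in vehicle and 272 and 123 CPM in Xevinapant. Both Xevinapant samples lay above all vehicle samples, and the log2 fold change was 2.36 ± 0.35 (SE), a fold of 5.14, with an edgeR adjusted p of 0.134. Without Xevinapant 1 and 2 it was 1.64, and over the alternative settings it ran from 1.64 to 3.39 with adjusted p from 8.27e-05 to 0.540, the lowest by DESeq2. The vehicle UMIs were few, 35, 9 and 20 from 6, 3 and 4 cells, against 1290 UMIs from 108 cells and 277 from 27 cells. The share of cells with a UMI was 4.62% ± 1.99 (SD, n = 3) in vehicle and 13.5% ± 7.07 (SD, n = 2) in Xevinapant, exact permutation p = 0.1. Thinned to 1000 UMIs per cell, it was 2.62% and 7.70%, exact permutation p = 0.2. At that depth 0.0935% of tumor-gated and 0.0% of T-NK-gated cells held a Cxcl2 UMI, against 45.7% of neutrophils and 6.81% of monocyte-macrophages.

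Neutrophil transcripts within the monocyte-macrophage gate were low: the 10 neutrophil markers summed to 213 to 256 CPM in vehicle and to 290 and 318 CPM in Xevinapant, against a mean of 59004 CPM in neutrophils. The gate's own 11 markers summed to 4374 to 5894 CPM in vehicle and 7160 to 8750.0 CPM in Xevinapant, and the 11 tumor markers to 504 to 878 CPM and 284 to 410 CPM, each without overlap. The part of these 3 lists in the Cxcl2 difference was not tested. In that gate 2 of the 3 members tested had an unadjusted p under 0.05 and were higher in Xevinapant, against 4.1% of all genes tested. Of those tested, Cxcl2 alone was higher in both Xevinapant samples than in each vehicle sample, as were 12.7% of genes tested. Cxcl5 and Cxcr2 failed the filter on low counts and had 0 UMIs in vehicle, and Cxcr2 had only 1 UMI in each Xevinapant sample. In neutrophils 0 of 4 members reached that unadjusted threshold with a higher level in Xevinapant, against 3.23% of genes.

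The effect of treatment on Cxcl2 was also set between gates in fits over both gates at once. It was 1.86 ± 0.70 (SE, log2) smaller in neutrophils than in monocyte-macrophages (edgeR adjusted p = 0.994), and 5.58 ± 1.25 (SE, log2) larger in monocyte-macrophages than in microglia (edgeR adjusted p = 0.241). Neither passed adjustment. The microglia gate held Cxcl2 at 1.16, 27.9 and 1.08 CPM in vehicle and at 0 and 0.87 CPM in Xevinapant, and 16 of the 18 UMIs in vehicle 2 came from 1 cell, so the comparison with microglia rests largely on that cell.

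Cxcl3, a close relative of Cxcl2 with the same receptor, was 1076, 114 and 150.4 CPM in vehicle neutrophils and 907 and 469.8 CPM in Xevinapant neutrophils. The values of vehicle 2 and vehicle 4 rested on 1 and 2 UMIs, each from 1 cell, and vehicle 2 was left out of the fit. The groups overlapped, with a log2 fold change of -0.03 ± 0.66 (SE, edgeR adjusted p = 0.9999). That fold change was 2.37 without vehicle 1 and 3, which left vehicle 4 with its 10 neutrophils as the only vehicle sample. In monocyte-macrophages Cxcl3 was 29.6, 108 and 49.4 CPM in vehicle and 158 and 88.6 CPM in Xevinapant, again with overlap. The log2 fold change there was 1.26 ± 0.41 (SE, edgeR adjusted p = 0.456), and 0.71 without Xevinapant 1 and 2. The share of these cells with a Cxcl3 UMI was 3.62% ± 1.24 (SD, n = 3) in vehicle and 10.95% ± 7.04 (SD, n = 2) in Xevinapant, exact permutation p = 0.1. Thinned to 1000 UMIs per cell, the shares were 3.38% and 6.28%, with overlap, exact permutation p = 0.6.

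Cxcl3 was often found in the same cells as Cxcl2. Among neutrophils 67 had UMIs of both genes, 85 had only Cxcl2 and 5 had only Cxcl3. In monocyte-macrophages 86 cells had both, 62 had only Cxcl2 and 37 had only Cxcl3, and 70 of those with both came from Xevinapant 1 and 2. In vehicle 1 and 3, 2 had both, 4 had only Cxcl2 and 4 had only Cxcl3. Cells of that gate with a Cxcl2 UMI were deeper, with a median of 6774 UMIs against 4865, and the part of depth was not tested. Over 44 sums of a gate in a sample, Cxcl3 was the gene most like Cxcl2 among 11248 genes (Pearson r = 0.965 of log2(CPM + 10)), followed by the formyl peptide receptors Fpr1 (0.964) and Fpr2 (0.962). The genes most like Cxcl3 were F10 (0.979), which encodes coagulation factor X, Cxcl2 and Clec4d (0.943). These sums share libraries and gates, so the correlations are a description.

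Within the monocyte-macrophage gate, Cxcl3 UMIs were found only in cells that also had a UMI of Arg1, the arginase of wound-type macrophages. Arg1 is itself one of the gate's markers, and the split was chosen after its values were seen. Of 694 cells without an Arg1 UMI, 0 had a Cxcl3 UMI, which at their depth allows up to 0.432% of cells with a UMI and sets no limit on cells expressing the gene, whereas 123 of 534 cells with one (23.0%) did. The level with Arg1 was 54.6, 205 and 186 CPM in vehicle and 223 and 207 CPM in Xevinapant, from 24, 28, 27, 751 and 199 UMIs. Without Arg1 it was 0 in all 5 samples, where 3 UMIs would have given 2.18 to 24.7 CPM.

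Cxcl2 lay on both sides of this split. It was found in 131 of 534 cells with Arg1 (24.5%) and in 17 of 694 without (2.45%). Its level with Arg1 was 52.4, 65.8 and 131 CPM in vehicle and 374 and 212 CPM in Xevinapant, and the groups did not overlap. The share of all genes without overlap in these cells was not measured. Without Arg1, Cxcl2 was 32.4, 0 and 2.49 CPM in vehicle and 21.1 and 57.6 CPM in Xevinapant, with overlap. Cells with an Arg1 UMI were 40.4%, 36.4% and 16.9% of the gate in vehicle and 57.9% and 30.8% in Xevinapant, again overlapping. Cells with Arg1 were the deeper ones, with a median of 3069 to 7715 UMIs by sample against 2954 to 4554.5 without, and the part of depth in the split was not tested.

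**Figure D4:**
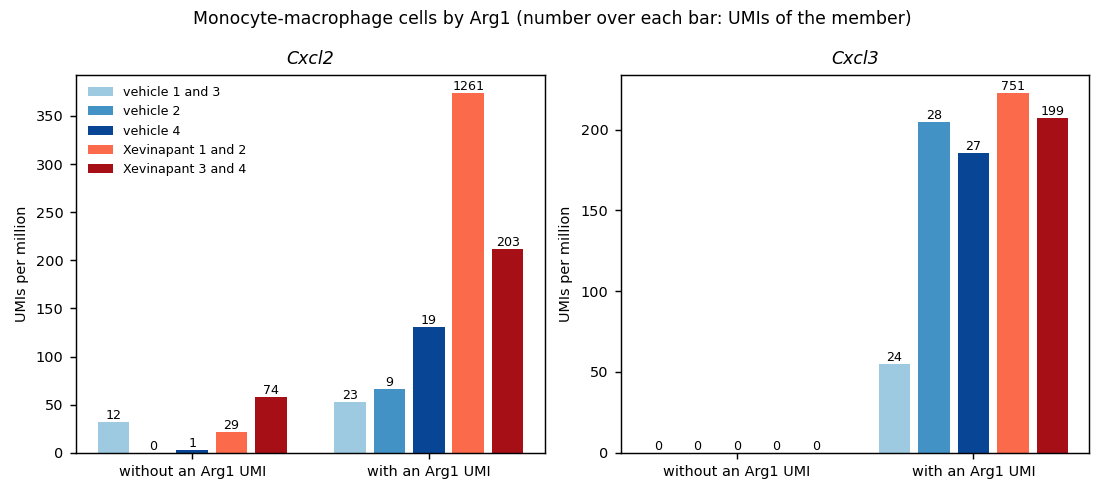
Bars give Cxcl2 (left) and Cxcl3 (right) in CPM (y axis from 0) for monocyte-macrophage cells without and with an Arg1 UMI, 1 bar per sample, and the number over each bar is the member's UMI count. All Cxcl3 bars without Arg1 are at 0, and the Cxcl2 bars with Arg1 reach 374 and 212 in the Xevinapant samples.

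Cxcl1, the mouse counterpart of the human GRO chemokines, was sparse and scattered. In fibroblasts it was 13.5, 22.4 and 7.72 CPM in vehicle and 40.0 and 9.51 CPM in Xevinapant. The groups overlapped, and the log2 fold change of 1.06 ± 0.67 (SE, edgeR adjusted p = 0.759) turned to -0.45 without Xevinapant 1 and 2. In monocyte-macrophages it was 11.1, 0 and 1.83 CPM in vehicle and 13.9 and 6.68 CPM in Xevinapant, with overlap. In the mural gate, set by markers of pericytes and smooth muscle of vessels, Cxcl1 was 9.95, 0 and 0 CPM in vehicle and 175 and 70.4 CPM in Xevinapant. These did not overlap, but Cxcl1 failed the filter on low counts and is not among the genes tested in that gate, of which 11.7% were higher without overlap. Single cells carried it: 19 of the 21 UMIs in the first Xevinapant sample and 9 of the 11 in the other came from 1 cell each. The 8 fibroblast markers summed to 17776 to 29351 CPM in vehicle and 20286 to 22554 CPM in Xevinapant mural cells. The gate's own 8 markers summed to less, 8593 to 16451 and 9522.5 to 12638 CPM. The part of the fibroblast markers was not tested.

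In tumor-gated cells Cxcl1 stayed under 1 CPM, at 0.89, 0.11 and 0.07 CPM in vehicle and 0.46 and 0.21 CPM in Xevinapant. The highest value, in vehicle 1 and 3, rested on 80 of 111 UMIs in 1 cell. Cxcl2 behaved likewise there, at 2.67, 0.11 and 0.45 CPM in vehicle and 1.31 and 0.49 CPM in Xevinapant, with 209 of 332 UMIs of vehicle 1 and 3 in 1 cell. Both had fold changes near 0 that turned positive without that sample. Over all 44 sums, and not in tumor cells alone, the genes most like Cxcl1 were Rasgrf1 (r = 0.793), Htr1b (0.780) and Hoxc5 (0.745). The highest Cxcl1 levels among these sums were those of the Xevinapant mural cells, which single cells carried.

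Cxcl5, a ligand made mainly by epithelial and stromal cells, was found in fibroblasts at 18.0, 0 and 33.5 CPM in vehicle and at 65.6 and 9.51 CPM in Xevinapant. The groups overlapped, and the log2 fold change of 0.94 ± 0.78 (SE, edgeR adjusted p = 0.828) turned to -1.02 without Xevinapant 1 and 2. In the fibroblast gate 0 of 3 members tested had an unadjusted p under 0.05 with a higher level in Xevinapant, against 3.87% of genes. In monocyte-macrophages Cxcl5 was 0 in all 3 vehicle samples and 10.5 and 4.90 CPM in Xevinapant, from 50 and 11 UMIs of which 28 and 8 came from 1 cell each. Most fibroblasts with a Cxcl5 UMI also had Cxcl12, with 40 cells positive for both and 9 for Cxcl5 alone. Fibroblasts with a Cxcl12 UMI were also deeper, with a median of 10738 UMIs against 2710, and the part of depth was not tested. The genes most like Cxcl5 were Serpinb2 (r = 0.898), Tnn (0.881) and Krt19 (0.860).

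Cxcr2, the receptor of these 4 ligands, was high in the neutrophil gate and at 9.95 CPM or less in the other gates plotted. Neutrophils held 1024, 1829.8 and 1579 CPM in vehicle and 996 and 939.6 CPM in Xevinapant. Both Xevinapant values lay below every vehicle value. With vehicle 2 and its 8 neutrophils left out, the same held for 14.2% of genes tested in neutrophils. The fit, also without vehicle 2, gave a log2 fold change of -0.38 ± 0.44 (SE, edgeR adjusted p = 0.9999). A UMI was found in 50.9% of neutrophils, 0.163% of monocyte-macrophages and 0.137% of tumor-gated cells. Its profile over gates was most like those of S100a9 (r = 0.993), Ankrd22 (0.991) and Retnlg (0.986), of which S100a9 and Retnlg had marked the gate.

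By detected UMIs of both receptors, neutrophils fell into classes of similar size. A Cxcr2 UMI alone was found in 87, a Cxcr4 UMI alone in 81, both in 77 and neither in 77 of the 322 cells. A Cxcr4 UMI was found in 47.0% of cells with a Cxcr2 UMI and in 51.3% of those without. Depth was low, with a median of 1399.5 UMIs, and positive cells held a median of 2 UMIs of either receptor. A missing UMI thus does not show a missing transcript, and whether the classes are distinct cells was not tested. Cxcl2 was found in 37.2% of neutrophils with a Cxcr2 UMI and in 57.6% of those without. The same order held in both Xevinapant samples, with 38.7% against 50.5% of 197 cells and 27.3% against 73.7% of 71 cells. In vehicle it held in vehicle 1 and 3 (53.3% against 61.9% of 36 cells) and vehicle 2 (0% against 60% of 8 cells) and was the other way in vehicle 4 (42.9% against 33.3% of 10 cells). Median depth was alike, 1437 UMIs in cells with Cxcr2 and 1390.5 in cells without.

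A Cxcl12 UMI was found in 52.2% of fibroblasts and 20.4% of endothelial cells, against 2.65% of tumor-gated cells, which were deeper (median 12965 UMIs against 5806 and 3750.0). At 1000 UMIs per cell the shares were 24.95%, 6.32% and 0.333%, and 0.172% in monocyte-macrophages. In fibroblasts Cxcl12 was 542, 93.2 and 301 CPM in vehicle and 634 and 199 CPM in Xevinapant. The groups overlapped, and the log2 fold change of 0.44 ± 0.59 (SE, edgeR adjusted p = 0.910) was -0.63 without Xevinapant 1 and 2. The genes most like it were Lpin3 (r = 0.883), Oaf (0.882) and Cyp2d22 (0.873).

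In endothelial cells Cxcl12 was 69.8, 57.5 and 189 CPM in vehicle and 328 and 166 CPM in Xevinapant, with overlap. The log2 fold change was 1.19 ± 0.40 (SE, edgeR adjusted p = 0.245), 1 of the 2 members tested there with an unadjusted p under 0.05, against 6.81% of genes. The share of endothelial cells with a Cxcl12 UMI was 22.5% ± 1.45 (SD, n = 3) in vehicle and 19.9% ± 7.28 (SD, n = 2) in Xevinapant, exact permutation p = 0.8, in the other direction. The log2 fold change was 0.65 without Xevinapant 1 and 2 and 0.12 once cells with UMIs on at least 3 tumor markers were left out. Single cells carried much of it: 34 of 66 UMIs in vehicle 4, 80 of 144 in Xevinapant 1 and 2 and 88 of 162 in Xevinapant 3 and 4 came from 1 cell. The 8 fibroblast markers summed to 138 to 501 CPM in vehicle and 258 and 929.7 CPM in Xevinapant in this gate, and their part was not tested. The difference between the fibroblast and endothelial effects was -0.84 ± 0.54 (SE, log2, edgeR adjusted p = 0.906).

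In tumor-gated cells Cxcl12 was 1.89, 0.68 and 0.90 CPM in vehicle and 11.1 and 1.96 CPM in Xevinapant. The groups did not overlap, but by a narrow margin at Xevinapant 3 and 4, and the log2 fold change of 2.46 ± 0.74 (SE, edgeR adjusted p = 0.392) was 0.69 without Xevinapant 1 and 2. Fibroblast markers in the tumor gate summed to 200.2 to 362 CPM in vehicle and 408 and 296 CPM in Xevinapant, against a mean of 171920 CPM in fibroblasts, with the highest sum in the sample with most fibroblasts and most Cxcl12. Their part was not tested.

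Cxcr4, the receptor of Cxcl12, was the most widely found member. The mean over samples was highest in neutrophils at 958 ± 159 CPM (SD, n = 4), followed by B cells at 610.0 ± 144 (SD, n = 4) and endothelial cells at 442 ± 165 (SD, n = 5). Mural cells had 296 ± 72.4, monocyte-macrophages 258 ± 67.6 and microglia 258 ± 49.5 CPM (SD, n = 5 each). T-NK cells had 233 ± 71.2 (SD, n = 4) and dendritic cells 135 ± 66.03 CPM (SD, n = 2). The dendritic mean rests on the Xevinapant samples alone, since no vehicle sample had at least 10 dendritic cells. Tumor-gated cells had 52.4 ± 16.7 and fibroblasts 9.82 ± 10.6 CPM (SD, n = 5 each). In samples with at least 10 cells, neutrophil values did not overlap with those of B cells, B cells overlapped with endothelial cells, and the gates from endothelial to dendritic cells overlapped one with the next. Every tumor value lay under every immune or vascular value in samples with at least 10 cells and above every fibroblast value. At 1000 UMIs per cell the order was similar, with a Cxcr4 UMI in 44.6% of neutrophils, 39.0% of B cells, 4.96% of tumor-gated cells and 0.805% of fibroblasts. Genes most like Cxcr4 were Ptbp3 (r = 0.830), Sh2d3c (0.795) and Itsn2 (0.791).

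In the tumor gate, Cxcr4 was 45.3, 29.6 and 50.3 CPM in vehicle and 72.2 and 64.7 CPM in Xevinapant, without overlap. The log2 fold change was 0.66 ± 0.22 (SE, edgeR adjusted p = 0.392). Of the members in tumor cells, 4 of 6 tested had an unadjusted p under 0.05 and were higher in Xevinapant, against 5.66% of genes. The 11 monocyte-macrophage markers in this gate summed to 7.87 to 14.1 CPM in vehicle and 17.5 to 31.8 CPM in Xevinapant, and the 11 T-NK markers to 1.73 to 2.33 and 2.77 to 3.09 CPM, each without overlap, while the 10 neutrophil markers overlapped (60.004 to 74.9 and 64.9 to 83.6 CPM). Their part in the members' differences was not tested. Cxcr2, Cxcl12 and Cxcr4 did not overlap between the groups, against 19.7% of genes, although Cxcr2 was at most 0.210 CPM there. Cxcl5 did not overlap either, with at most 14 UMIs in a sample, and failed the filter on low counts. The share of tumor cells with a Cxcr4 UMI was 30.4% ± 7.49 (SD, n = 3) in vehicle and 38.4% ± 1.17 (SD, n = 2) in Xevinapant, exact permutation p = 0.3. Thinned to 1000 UMIs per cell, it was 4.09% and 6.03%, without overlap, exact permutation p = 0.1.

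Tumor cells with astrocyte markers (Gfap, Aqp4, Mlc1, Gja1, Id4), called AC-like, had the highest Cxcr4 of 3 tumor subsets, at 81.6, 70.2 and 77.1 CPM in vehicle and 123 and 119 CPM in Xevinapant. The groups were well apart, and the log2 fold change of 0.65 ± 0.11 (SE, edgeR adjusted p = 0.199) was 0.63 without Xevinapant 1 and 2. It ran from 0.60 to 0.69 over the alternative settings, with an adjusted p from 7.08e-05 (DESeq2) to 0.999. In this subset 2 of 3 members tested had an unadjusted p under 0.05 and were higher in Xevinapant, against 5.92% of genes, and Cxcr4 did not overlap, against 15.5%. Cxcr2 did not overlap either, but it failed the filter on low counts, with 1, 0 and 4 UMIs in vehicle and 3 and 6 in Xevinapant. Cxcr4 was found in 67.8% of AC-like cells, 47.9% of hypoxic cells and 26.3% of tumor cells that were neither. Median depth was 22139 UMIs in AC-like and 20945 in hypoxic cells, and 7025 to 11216 by sample in the others. The part of depth in these shares was not tested.

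Tumor cells with hypoxia markers (Ndrg1, Vegfa, Ankrd37, Egln3, Car9, Adm) had Cxcr4 at 46.3, 29.4 and 54.7 CPM in vehicle and 74.3 and 67.7 CPM in Xevinapant, without overlap. The log2 fold change was 0.68 ± 0.24 (SE, edgeR adjusted p = 0.416). In hypoxic cells 2 of 5 members tested had an unadjusted p under 0.05 and were higher in Xevinapant, against 5.86% of genes, and Cxcl12 and Cxcr4 did not overlap, against 17.6%. Cxcl5 and Cxcr2 did not overlap there either, but both failed the filter on low counts, with at most 6 and 16 UMIs in a sample. In the remaining tumor cells Cxcr4 was 37.6, 23.4 and 40.4 CPM in vehicle and 58.4 and 45.6 CPM in Xevinapant, without overlap. The share of all genes without overlap in these remaining cells was not measured. The same direction was thus seen in all 3 subsets, which share their samples, and 1665 cells were both AC-like and hypoxic.

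**Figure D5:**
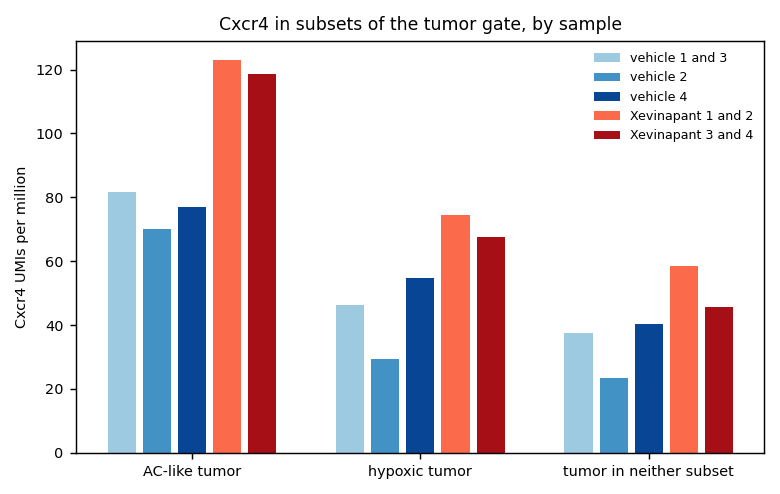
Bars give Cxcr4 in CPM (y axis from 0) for 3 subsets of the tumor gate, with 1 bar per sample. Both Xevinapant bars stand above the 3 vehicle bars in each subset, and within each sample the AC-like bar (70.2 to 123) is the highest. For tumor cells in neither subset, the share of all genes without overlap was not measured.

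Cxcr4 in microglia was 194, 268 and 221 CPM in vehicle and 308 and 299 CPM in Xevinapant, without overlap. The log2 fold change was 0.44 ± 0.18 (SE, edgeR adjusted p = 0.999), the only member tested there, against 1.77% of genes at an unadjusted p under 0.05 with a higher level and 8.65% without overlap in that direction. In this gate the 10 endothelial markers summed to 17.1 to 22.6 CPM in vehicle and 33.6 to 37.2 CPM in Xevinapant, the 10 neutrophil markers to 119 to 143 and 144 to 178 CPM, and the 11 monocyte-macrophage markers to 2046 to 2155 and 1851 to 2000.4 CPM, each without overlap. Their part was not tested. The share of microglia with a UMI was 45.8% ± 5.82 (SD, n = 3) in vehicle and 62.9% ± 7.87 (SD, n = 2) in Xevinapant, exact permutation p = 0.1, and 15.8% and 23.5% after thinning, exact permutation p = 0.2. In T-NK cells Cxcr4 was 208 and 145 CPM in the vehicle samples with at least 10 cells and 304 and 275 CPM in Xevinapant, without overlap, as for 14.4% of genes. Its log2 fold change was 0.75 ± 0.42 (SE, edgeR adjusted p = 0.999). In the T-NK gate the 10 neutrophil markers summed to 0 to 14.5 CPM in vehicle and 27.9 to 38.0 CPM in Xevinapant. The 7 dendritic markers summed to 0 to 104 and 120 to 247 CPM, and the part of both lists was not tested.

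In the other gates with Cxcr4 the groups overlapped. Neutrophils held 1076, 686 and 902 CPM in vehicle and 759 and 1096 CPM in Xevinapant. Monocyte-macrophages held 300.2, 256 and 238 CPM in vehicle and 159 and 338 CPM in Xevinapant. Endothelial cells held 497, 469 and 275 CPM in vehicle and 292 and 675 CPM in Xevinapant. The log2 fold changes were -0.10 ± 0.45, -0.11 ± 0.30 and 0.28 ± 0.32 (SE).

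Summed over all kept cells of a tumor, the 7 genes had higher means in Xevinapant. Such a sum cannot tell more cells of a type from more RNA per cell, and the shares of neutrophils, monocyte-macrophages and fibroblasts given above moved with it. Of the 7 members, 6 had an unadjusted p under 0.05 and were higher in Xevinapant, against 10.4% of genes, and Cxcl3, Cxcr2 and Cxcr4 did not overlap, against 23.9%. Cxcl3 was 0.67, 0.31 and 0.23 CPM in vehicle and 9.89 and 1.19 CPM in Xevinapant, a log2 fold change of 3.73 ± 0.90 (SE, edgeR adjusted p = 0.243). Cxcr2 was 0.44, 0.19 and 0.16 CPM in vehicle and 2.89 and 0.64 CPM in Xevinapant, a log2 fold change of 2.69 ± 0.74 (SE, edgeR adjusted p = 0.243).

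Most of these differences were smaller without Xevinapant 1 and 2, the sample with most infiltrating cells. Cxcl2 was 5.85, 0.58 and 0.92 CPM in vehicle and 24.6 and 4.88 CPM in Xevinapant, and Cxcl12 was 4.26, 1.499 and 3.05 CPM against 31.2 and 4.02 CPM, so that vehicle and Xevinapant overlapped for both. Their log2 fold changes were 2.55 ± 1.06 and 2.54 ± 0.81 (SE), and 0.93 and 0.37 without Xevinapant 1 and 2. Cxcl5 went from 3.07 ± 1.27 (SE) to 0.09, Cxcl1 from 1.51 ± 0.91 (SE) to -0.14, Cxcl3 to 1.48 and Cxcr2 to 1.19. Cxcr4, 82.9% of which came from tumor-gated cells, was 51.5, 36.0 and 54.6 CPM in vehicle and 82.4 and 74.1 CPM in Xevinapant, and its log2 fold change of 0.66 ± 0.19 (SE, edgeR adjusted p = 0.243) was 0.55 without that sample.

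A list of 40 genes around these chemokines, 39 of them listed in the files, was tested in the same fits. Of 214 tests, 3 passed an adjusted p of 0.05 and 67 had an unadjusted p under 0.05. All 3 rose and all lay in endothelial cells, where 10 genes of the list were tested and 7 had an unadjusted p under 0.05, against 12.2% of all genes. Zfp36, the protein that directs decay of chemokine transcripts, was 57.4, 34.5 and 77.5 CPM in vehicle and 217 and 171 CPM in Xevinapant, and rose by 1.79 ± 0.28 (SE, log2, edgeR adjusted p = 0.0150). Cxcl9, a chemokine induced by interferon-gamma that attracts T cells through Cxcr3, was 24.6, 34.5 and 34.4 CPM in vehicle and 77.5 and 189 CPM in Xevinapant, and rose by 2.16 ± 0.38 (SE, log2, edgeR adjusted p = 0.0255). Ackr1, a receptor of venular endothelium that binds chemokines without signaling, was 4.10, 0 and 20.1 CPM in vehicle and 182 and 65.4 CPM in Xevinapant, and rose by 3.77 ± 0.67 (SE, log2, edgeR adjusted p = 0.0270). In none of the 3 did the groups overlap, which adds no support, since the test on these same samples picked them. The share of all endothelial genes without overlap is not given here.

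Each of these calls was lost when any 1 vehicle sample was left out, with edgeR adjusted p up to 0.124 for Zfp36, 0.173 for Cxcl9 and 0.190 for Ackr1, and Ackr1 was not called by DESeq2 (adjusted p = 0.433). Without a vehicle sample the log2 fold change stayed at 1.51 to 2.11 for Zfp36 and 2.05 to 2.23 for Cxcl9, whereas that of Ackr1 was 3.55 without vehicle 1 and 3, 3.13 without vehicle 2 and 5.93 without vehicle 4. Cxcl9 was also lost without Xevinapant 3 and 4 (log2 fold change 1.32) and Ackr1 without Xevinapant 1 and 2 (2.94). The 11 tumor markers summed to 1432 to 1951 CPM in vehicle and 698 to 1202 CPM in Xevinapant endothelial cells, and their part was not tested. With cells holding at least 3 tumor markers left out, the 3 genes were not among the endothelial genes that could be tested, so their calls have no value in that setting. Below the threshold were P-selectin, Selp, with which venules catch neutrophils, at a log2 fold change of 2.76 (edgeR adjusted p = 0.0646), the integrin ligand Icam1 at 1.56 (0.0913) and the NF-kB inhibitor Nfkbia at 0.92 (0.128).

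Elsewhere 0 genes of the list passed edgeR's adjusted p of 0.05. At an unadjusted p under 0.05 there were 6 of 22 tested in monocyte-macrophages (9.24% of all genes), 11 of 29 in tumor cells (11.5%), 2 of 18 in fibroblasts (7.86%), 1 of 16 in neutrophils (4.97%), 0 of 20 in microglia (3.55%) and 25 of 34 in whole tumors (16.7%). AC-like cells had 7 of 23 (1611 of 13101 genes), hypoxic cells 6 of 25 (1552 of 13908) and mural cells 2 of 3 (187 of 3596). T-NK cells had 0 of 11 (99 of 2723) and B cells 0 of 3 (24 of 230). The neutrophil gene was Il1b, the interleukin-1 that induces these chemokines, at 3585 and 5489 CPM in the vehicle samples with at least 10 neutrophils and 1711 and 2662 CPM in Xevinapant, a log2 fold change of -1.03 (edgeR adjusted p = 0.974).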

How the data were processed

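Tumors were dissociated and profiled with a probe-based 10X Genomics single-cell kit in 2 pools, vehicle and Xevinapant. The deposited values are raw UMI counts per gene and cell that the authors made with Cell Ranger on mm10 (GRCm38). The matrix headers name version 7.1.0 and the labels version 3.0. Matrices deposited under the Xevinapant sample are named as vehicle, and the sample label was followed. One label says total RNA and the other polyA RNA.

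Following the study's filters, cells with fewer than 200 genes, over 10% mitochondrial UMIs or complexity under 0.8 were dropped, and doublets (3512 cells) were removed with Scrublet alone (scanpy 1.11.5) at 0.8% per 1000 cells, where the study removed cells that more than 1 of several callers marked, at a rate 10 times lower. Of 54574 cells past the filters 51062 were kept. A cell entered the gate whose marker share, relative to the median of the 50 highest cells, was largest, if it had UMIs on at least 3 of its markers. Cells whose next gate reached 0.5 of that were called mixed (773), and cells without a gate ungated (3090). Matrices of a group with a noise ratio under 2, a limit chosen after seeing the data, were joined. Counts were summed per sample and gate with at least 10 cells and tested with edgeR 4.0.16 (quasi-likelihood, TMM, filterByExpr, R 4.3.3) in place of the study's test over cells. P-values were Benjamini-Hochberg adjusted over all genes of a fit. DESeq2 1.42.0 was an alternative. The edgeR script was tested on simulated data. Shares were compared with exact two-sided permutation tests (scipy 1.17.1), which allow no p under 0.1 for 3 against 2 samples. Intervals and limits for a count of 0 (3 counts) cover counting error only. Genes named are the 7 members, the list of 40 around them and, for each member, the 3 genes with the highest Pearson r over gate sums, among genes at 50 CPM or more in at least 1 sum. Members, lists and tests were chosen with earlier results of these data known. Cxcl11 and the markers Ly6c2 and Olfml3 were not used here.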

Additional observations from a re-analysis of the deposited data

Results flagged for a closer look

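Cells that passed no gate enter no comparison of a single gate, and in them both Cxcl2 and Cxcr4 were higher in the Xevinapant than in the vehicle samples. These members were listed because they did not overlap there, so the lack of overlap adds no support. The share of all genes that do so in ungated cells was not measured. The 3090 ungated cells had a median depth of 767 to 958.5 UMIs by sample. Cxcl2 was 94.97, 15.3 and 20.3 CPM in the vehicle samples and 327.3 and 165.3 CPM in the Xevinapant samples, where 32 of 791 and 17 of 1012 ungated cells had a UMI. In Xevinapant 3 and 4, 121 of the 238 Cxcl2 UMIs came from 1 cell, and the level without it, 81.4 CPM, lay below that of vehicle 1 and 3. Cxcr4 was 94.97, 73.4 and 72.2 CPM in the vehicle samples and 133.7 and 150.02 CPM in the Xevinapant samples. The ungated share was itself 3.41% to 6.41% in vehicle and 9.26% and 7.08% in Xevinapant, so more of these transcripts lay outside the gates in Xevinapant. What these cells are was not tested.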

How the results depend on the processing

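No member passed the adjusted threshold in a single gate (edgeR, 18 at an unadjusted p under 0.05 with whole tumors included). That count of 0 became 4 with DESeq2, 3 with each matrix counted as 1 sample, 3 with no filter on low counts, and 0 to 1 with a sample left out. In whole tumors it became 2 with DESeq2, 3 with each matrix as a sample and 0 to 3 with a sample left out, the 3 being Cxcl3, Cxcr2 and Cxcl12 without Xevinapant 3 and 4. These settings also called more genes in all: 548 of 15385 in whole tumors without Xevinapant 3 and 4, 1506 of 14613 there, 786 of 14179 in tumor, 697 of 12475 in AC-like and 55 of 8700 in monocyte-macrophage cells with each matrix as a sample, and 281 of 13804 in endothelium, 73 of 12627 in mural and 259 of 17704 in AC-like cells with no filter. Counting each matrix as a sample also gave 1 call between gates (Cxcl2 in neutrophils against monocyte-macrophages) and brought 4 of 16 shares of cells with a UMI and 6 of 12 gate shares to an exact permutation p of 0.0286, unadjusted, which was 0.114 and 0.0571 after adjustment. With the matrix number as a replicate block and each matrix as a sample, 2 calls were made in gates (Cxcl2 in monocyte-macrophages, log2 fold change 2.19, and Cxcr4 in AC-like cells, 0.65) and 0 in whole tumors, where 62 of 8700, 612 of 12475 and 0 of 14613 genes were called, and Cxcl1 in tumor cells turned to 0.22. These numbers come from file names, so the pairing has no basis in the labels. Where a group was left with 1 sample, that sample was assumed to vary like the others.

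Of 621 values under alternatives, 545 kept their direction and side of the threshold, 33 changed sign, 31 passed the threshold and 12 fell below it. The cause of these changes was not tested. The threshold was on the adjusted p for fits, and on the unadjusted exact permutation p for shares. That p is at least 0.1 for 3 against 2 samples, and higher with a sample left out. Shares could therefore pass only with each matrix as a sample, and in other settings they kept their side whatever their values. The shares among the 31 that passed did not pass after adjustment (0.114 and 0.0571). Log2 fold changes that turned were, in neutrophils with no filter, Cxcr4 (0.20), Cxcl3 (0.21, and 0.016 with DESeq2) and Cxcl2 (0.037). With at least 4 markers, Cxcr4 in monocyte-macrophages turned to 0.027 and Cxcl2 in tumor cells to 0.012, and with no doublets removed the latter was 0.65. With a sample left out, neutrophils ranged from -0.34 to 0.24 for Cxcr4 (0.18 without Xevinapant 1 and 2), -0.61 to 2.37 for Cxcl3 (0.51 without Xevinapant 3 and 4) and -0.94 to 2.19 for Cxcl2. Cxcr4 ranged from -0.70 to 0.33 in monocyte-macrophages (0.026 without vehicle 1 and 3) and -0.46 to 0.74 in endothelium. Fibroblasts ranged from -1.02 to 1.84 for Cxcl5, -0.45 to 1.68 for Cxcl1 and -0.63 to 1.05 for Cxcl12. Cxcl1 ranged from -0.84 to 1.79 in tumor cells (0.34 without Xevinapant 3 and 4), -0.65 to 2.52 in AC-like cells, -1.39 to 2.13 in hypoxic cells and -0.14 to 2.61 in whole tumors. Cxcl2 ranged from -1.18 to 1.57 in tumor (0.26 without Xevinapant 3 and 4) and -1.79 to 2.81 in hypoxic cells, and Cxcl3 in hypoxic cells from -0.57 to 2.06. Shares with a UMI that turned, in percentage points, were Cxcr4 in monocyte-macrophages (-0.861) and endothelium (-1.66) and Cxcl12 in endothelium (0.884) after thinning. Without cells holding tumor markers, they were Cxcl12 in endothelium (2.59) and Cxcl1 in fibroblasts (0.102).

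Depth limits what is seen of Cxcl1 and Cxcl5, which gave 599 and 425 UMIs in all. The vehicle samples held 36, 8 and 10 neutrophils.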
